A study of Saccharomyces cerevisiae with 6 samples.

Results

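The Xrn1-sensitive unstable transcripts (XUTs) that do not run antisense to a protein-coding gene were examined in an RNA co-immunoprecipitation of budding yeast with J2, an antibody that binds double-stranded RNA (dsRNA). A member was a nuclear XUT of the deposited feature table with less than 0.5 of its span, the distance between its outermost ends, opposite any single protein-coding feature. This held for 495 of 1593 XUTs among 15753 features, and the other 1098 XUTs, which face an mRNA along at least that share, are called antisense XUTs here. The J2 eluate group (3 libraries) holds RNA recovered from the J2 beads, and the J2 unbound group (3 libraries) holds RNA that stayed in solution when the supernatant was incubated with J2 and beads once more. Both groups came from total RNA of cells that the labels call wild-type S288C, grown at 25 °C with no further treatment. The study's strain list gives the wild type as BY4741, an S288C derivative with deletions at HIS3, LEU2, MET15 and URA3, and both groups share this background. The study describes the 3 samples of a group as biologically independent, and an eluate and an unbound library of the same number deviated together.

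XUTs are RNA polymerase II transcripts that accumulate when Xrn1, the cytoplasmic 5′ to 3′ exonuclease, is missing. Most known XUTs lie antisense to genes, where they can pair with the mRNA and form dsRNA. XUTs that lie between genes have no such mRNA partner along most of their length, but they can still face another non-coding transcript, a snoRNA or the end of a gene, or fold back on themselves through inverted repeats such as the long terminal repeats (LTRs) of Ty retrotransposons. Related classes in the table are SUTs (stable unannotated transcripts), CUTs (cryptic unstable transcripts, degraded in the nucleus) and asRNAs (features that the table itself marks as antisense).

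Members spanned between 252 and 4606 bases, lay on all 16 nuclear chromosomes, and numbered 248 on the plus and 247 on the minus strand. Their mean normalised count over the 6 libraries ran between 3.00 and 2950, with a median of 38.5. No member was at 0 in every library. The minimum mean of 40 was passed by 242 members, and counts of calls refer to these unless stated. Summed counts per library over all features lay between 19871214 and 43141091 in the eluates and between 18645818 and 27010153 in unbound libraries. Members took 0.379% ± 0.0732 (SD, n = 3) of these counts in the eluates and 0.123% ± 0.00208 (SD, n = 3) in unbound libraries.

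A first set of sequences is shown because these members carry the complement of a structured RNA that is encoded on the other strand. They are read in the direction of the XUT from the sacCer3 (R64) genome, and capitals mark the stretch opposite SNR14 (the U4 snRNA of the spliceosome, 160 bases) or opposite the C/D box snoRNAs SNR87 (109 bases), SNR69 (101 bases) and SNR68 (136 bases), which guide methylation of ribosomal RNA. The windows are chrV:167412-167601 and chrXI:431015-431153 on the plus strand, and chrXI:364761-364891 and chrIX:97106-97261 on the minus strand.
XUT_5F-75: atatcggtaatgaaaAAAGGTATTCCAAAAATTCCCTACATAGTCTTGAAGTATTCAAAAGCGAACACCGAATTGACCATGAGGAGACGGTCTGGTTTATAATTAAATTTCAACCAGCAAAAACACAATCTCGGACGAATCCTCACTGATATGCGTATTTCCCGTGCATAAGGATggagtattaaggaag
XUT_11F-191: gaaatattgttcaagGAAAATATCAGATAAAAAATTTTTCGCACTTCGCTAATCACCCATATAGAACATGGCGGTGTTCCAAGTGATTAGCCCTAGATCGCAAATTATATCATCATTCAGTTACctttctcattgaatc
XUT_11R-166: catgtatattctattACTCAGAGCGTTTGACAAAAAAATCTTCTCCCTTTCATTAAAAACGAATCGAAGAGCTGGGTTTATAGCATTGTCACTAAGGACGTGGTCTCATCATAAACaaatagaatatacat
XUT_9R-38: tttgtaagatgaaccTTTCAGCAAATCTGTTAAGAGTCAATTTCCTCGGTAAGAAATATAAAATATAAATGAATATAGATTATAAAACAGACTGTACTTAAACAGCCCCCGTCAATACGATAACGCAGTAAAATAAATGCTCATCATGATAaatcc

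XUT_3R-8 had the largest fold change of the 242 members, although it passed the minimum mean only through the eluates, and its whole span is shown (280 bases, chrIII:30897-31176, minus strand). Capitals mark the 87 bases opposite RDT1, a short open reading frame that RefSeq places on the other strand.
XUT_3R-8: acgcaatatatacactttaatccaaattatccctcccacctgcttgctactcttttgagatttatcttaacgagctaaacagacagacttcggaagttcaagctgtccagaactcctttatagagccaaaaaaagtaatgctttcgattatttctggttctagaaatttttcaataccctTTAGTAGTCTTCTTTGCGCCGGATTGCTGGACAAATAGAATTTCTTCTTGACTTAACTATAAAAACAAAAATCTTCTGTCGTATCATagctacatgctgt

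XUT_5R-115 had the highest mean count of all members and held the longest perfect inverted repeat. Capitals mark its arms of 28 bases, which are exact reverse complements of each other and lie 254 bases apart, 1 in each of 2 Ty1 LTRs of opposite orientation (chrV:249542-249589 and chrV:249260-249307, minus strand).
XUT_5R-115 arm 1: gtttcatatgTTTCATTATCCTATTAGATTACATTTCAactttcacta
XUT_5R-115 arm 2: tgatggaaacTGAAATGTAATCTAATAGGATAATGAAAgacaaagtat

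To find which of these XUTs are bound by J2, the eluates were compared with the unbound libraries. Members were divided between the fractions. With limma and an adjusted p under 0.05, 83 of 242 members (34.3%) were enriched in the eluate, where 34.6% of all features above the mean of 40 were enriched, and 82 (33.9%) were reduced, where 48.0% of all such features were. The remaining 77 were not called. The median of the 242 log2 fold change, eluate over unbound, was 0.05 (0.07, 0.10 and 0.01 when eluates and unbound libraries of the same number were paired), and the quartiles were -0.99 and 1.23. Over all 10188 features above the mean of 40 the median was -0.46. In 89 members all eluates lay above all unbound libraries (35.4% of all features above the mean of 40), and in 85 all lay below (49.2% of them). The minimum applies to the mean over both groups, so that 33 members passed it through the eluates alone and 38 through the unbound libraries alone, and their direction was largely set by that. Among the 33, 30 were enriched, and among the 38, 34 were reduced. The 171 members with a mean above 40 in each group had 53 enriched and 48 reduced, with a median log2 fold change of 0.07 and values between -2.42 and 3.69. Without the minimum, 119 of 495 members (24.0%) were enriched, against 38.7% of all 15753 features, and 156 (31.5%) were reduced, against 34.4%.

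The even split belongs to the deposited scaling. Size factors from the total count gave 136 enriched and 29 reduced members, and factors from nuclear mRNAs alone gave 162 and 19. All 83 members enriched with the deposited factors were also enriched with TMM, total count and mRNA factors, whereas 19 of the 82 reduced members were reduced under all 4.

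The antisense XUTs were taken for comparison. Of 697 above the mean of 40, 526 (75.5%) were enriched and 60 (8.61%) were reduced, and the median log2 fold change was 1.86. The median of the members was therefore lower by a difference of -1.81, which came to -1.67, -1.75 and -2.07 in library pairs 1 to 3 (SD 0.213). Size factors cancel in such a difference. Against the 5703 nuclear mRNAs above the mean, whose median was -1.40, members were higher by 1.45, with 1.36, 1.53 and 1.46 in the 3 pairs. SUTs (0.87) and CUTs (2.27) had higher medians than the members, and the 97 features named intergenic had a median of -0.46.

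**Figure D1:**
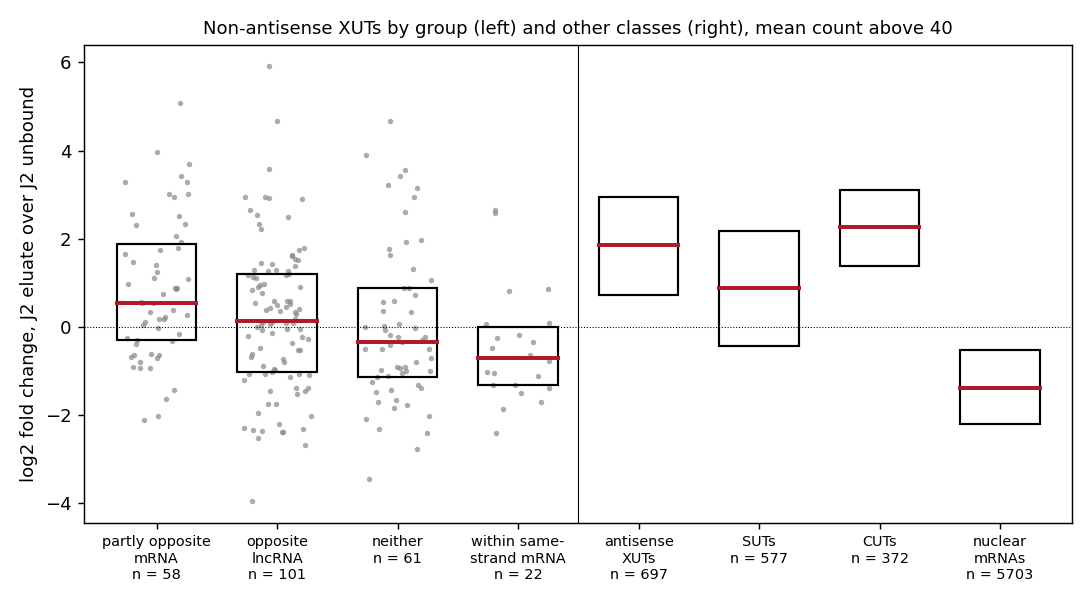
Log2 fold change of J2 eluate over J2 unbound. Points are single non-antisense XUTs with a mean count above 40, in 4 groups by what overlaps them, boxes span the quartiles and red lines are medians. The group medians run down in the order 0.55, 0.12, -0.35 and -0.71, all between that of antisense XUTs (1.86) and that of nuclear mRNAs (-1.40).

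The members were then grouped by their overlaps. Among the 58 that had some bases opposite an mRNA (and less than 0.5 opposite a single non-coding feature), 28 were enriched and 11 reduced, with a median log2 fold change of 0.55. In the group with at least 0.5 of the span opposite a single SUT, CUT, XUT or asRNA, 36 of 101 were enriched and 34 reduced, with a median of 0.12. In the group with neither, 16 of 61 were enriched and 26 reduced, with a median of -0.35. Those that lay mostly within an mRNA of their own strand had 3 enriched and 11 reduced of 22, with a median of -0.71. The first group exceeded the third by 0.90, at 0.93, 1.05 and 1.02 by library pair (SD 0.059), and the second exceeded the third by 0.47, with 0.63, 0.57 and 0.52 (SD 0.057). Both differences were larger than the spread between the pairs. These groups hold different XUTs, so a median describes its list and was not tested. Members of the second group can also face an mRNA in part, whereas those of the third do not. The 0.47 therefore does not set these kinds of overlap apart.

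The 6 members with the largest rise included 2 that face a structured RNA. All 6 averaged under 40 in unbound libraries and passed the minimum through the eluates, and the largest rise among members above 40 in each group was that of XUT_2F-150 (3.70). XUT_5F-75 had 648, 537 and 738 normalised counts in the eluates, against 14.9, 14.2 and 27.1 in unbound libraries. Its log2 fold change was 5.07 ± 0.29 (SE), a fold of 33.7 (limma adjusted p = 4.88e-07). The groups lay far apart, with the lowest eluate well above the highest unbound library. On the other strand, U4 itself (SNR14) moved the other way, with 96.4 ± 19.0 in the eluates and 818 ± 198 in unbound libraries (SD, n = 3 each; log2 fold change -3.06, limma adjusted p = 2.88e-06). The XUT also faces the 3′ part of SEC3, which encodes an exocyst subunit, over 306 bases and CUT549 over 279 bases, and both were reduced (-0.86 and -1.46).

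XUT_11F-191 had 286, 236 and 278 normalised counts in the eluates, against 5.96, 17.7 and 7.73 in unbound libraries (log2 fold change 4.68 ± 0.38 SE, limma adjusted p = 3.05e-06). It has no mRNA opposite and lies across SNR87, which had 13.1 ± 6.35 counts in the eluates and 18.5 ± 8.23 in unbound libraries (SD, n = 3 each). That snoRNA did not pass the test, with a log2 fold change of -0.46 (limma adjusted p = 0.394). XUT_11R-166, opposite SNR69, had 529, 483 and 616 counts in the eluates, against 61.0, 60.2 and 43.8 in unbound libraries (3.29, limma adjusted p = 1.02e-06). XUT_9R-38, with 50.2% of its span opposite SNR68, had 64.4, 76.3 and 166 in the eluates, against 7.44, 3.54 and 16.8 in unbound libraries (3.43, limma adjusted p = 0.000277). The groups did not overlap in either. SNR69 and SNR68 were themselves reduced, with log2 fold changes of -2.02 each.

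There were 6 members opposite an snRNA or snoRNA in all, a set chosen after its values were seen. The remaining pair fell under the minimum mean. XUT_2F-118, opposite SNR161, had 65.4, 58.7 and 92.8 counts in the eluates, against 0, 3.54 and 0 in unbound libraries, and XUT_7R-275, opposite SNR48, had 55.5, 58.1 and 89.4 in the eluates, against 8.93, 8.86 and 2.58 in unbound libraries. With limma, all 6 were enriched. The 4 above the mean of 40 had a median log2 fold change of 4.05, and 4.22, 3.88 and 4.25 by library pair. Of these 4, all but XUT_11F-191 also have 13.3% to 37.1% of their span opposite an mRNA, and the part of each overlap in the result was not tested.

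XUT_3R-8 was measured almost wholly in the eluates, with 139, 92.7 and 147 normalised counts in the eluates, against 1.49, 0 and 2.58 in unbound libraries. That is 609 reads in the eluates and 3 in unbound libraries, and the ratio scaled by the size factors was 84.0 (95% exact interval 28.6 to 409, for counting error only). Its log2 fold change in the fit was 5.91 (limma adjusted p = 4.65e-06). All of it lies within XUT_3F-6 on the other strand, itself a member, which had 249, 194 and 275 counts in the eluates, against 368, 356 and 363 in unbound libraries (-0.61, limma adjusted p = 0.016). The scarce strand of this pair was thus enriched and the abundant strand reduced. XUT_3R-8 shares its reads with CUT462 of the same strand.

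**Figure D2:**
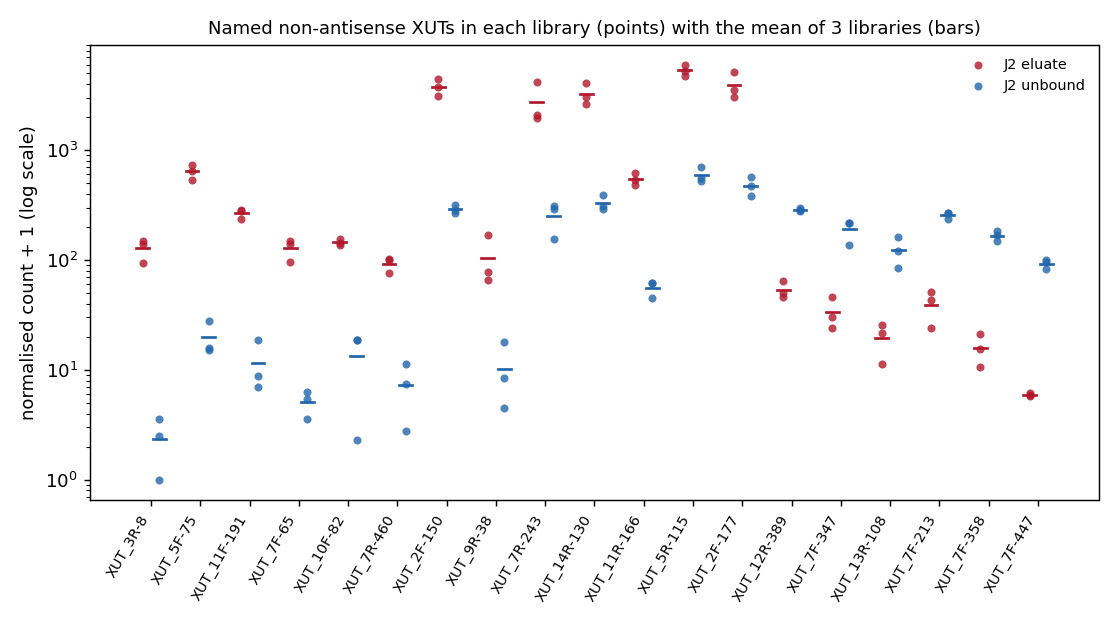
Normalised count plus 1 (log scale) in each library for the 6 most enriched, 6 most reduced and 5 most abundant non-antisense XUTs and those opposite a snRNA or snoRNA, J2 eluate in red and J2 unbound in blue, with bars at the means of 3 libraries. The groups do not overlap in any of them, which the choice of the 6 most enriched and 6 most reduced required. XUT_3R-8 reaches 0 counts in 1 unbound library.

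The next members of this list had little in common on the other strand. XUT_7F-65 had 148, 140 and 95.4 counts in the eluates, against 4.47, 5.31 and 2.58 in unbound libraries (4.67 ± 0.37 SE, limma adjusted p = 2.65e-06), and 89.6% of it lies opposite CUT589, which did not pass the test (0.70, limma adjusted p = 0.228). XUT_10F-82 had 141, 156 and 135 in the eluates, against 17.9, 17.7 and 1.29 in unbound libraries (3.96 ± 0.71 SE, limma adjusted p = 0.000633). The low unbound 3 carries part of that value, which is 2.95 without it. XUT_10F-82 reaches into URA2, which encodes the enzyme of the initial steps of pyrimidine synthesis, and TRK1, a potassium transporter gene, both on the other strand and both reduced. XUT_7R-460 had 74.7, 98.1 and 101 in the eluates, against 10.4, 1.77 and 6.44 in unbound libraries (3.89, limma adjusted p = 7.4e-05). It may share reads with features of its own strand. These are antisense2159 over 30.4% of its span (4.27), INT50-802 over 55.9% (3.98) and intergenic-70 over 98.9% (1.01). No feature of the table lies opposite XUT_7R-460.

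XUT_7R-460 was an exception among such members. Of the 42 members with nothing annotated on the other strand, 14 passed the minimum mean, and of these 1 was enriched, 9 were reduced and 4 were not called. Their median log2 fold change was -1.09, with -0.75, -1.23 and -1.02 by library pair.

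The 5 members with the highest mean over all 6 libraries were all enriched. Their eluate counts weigh heavily in that mean, so their direction was partly set by the choice. By reads, XUT_2F-145, XUT_10R-233 and XUT_12R-370 were the top members in unbound libraries 1, 2 and 3. XUT_5R-115 had 5903, 4741 and 5270 normalised counts in the eluates, against 698, 524 and 561 in unbound libraries (3.16 ± 0.18 SE, limma adjusted p = 4.49e-07). It alone made up between 6.85% and 9.01% of the reads of all members in an eluate. XUT_5F-117, a member within it on the other strand, had 100, 115 and 97.9 in the eluates, against 7.44, 15.9 and 16.8 in unbound libraries (2.95, limma adjusted p = 4.47e-05). Both strands of this locus were therefore enriched.

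Of the others, 3 face mRNAs along most of their length although no single mRNA reaches 0.5 of it. XUT_2F-177, the longest member, lies opposite PHO3 (36.3% of its span) and PHO5 (37.5%), which encode acid phosphatases. It had 3011, 3546 and 5125 counts in the eluates, against 471, 377 and 568 in unbound libraries (3.02, limma adjusted p = 2.3e-06). XUT_2F-150, 47.9% of it opposite TIP1, a cell wall mannoprotein gene, had 3122, 3712 and 4467 in the eluates, against 313, 282 and 268 in unbound libraries (3.70, limma adjusted p = 3.03e-07). XUT_14R-130, 49.3% of it opposite YGP1, which encodes a secreted glycoprotein, had 2613, 3056 and 4043 in the eluates, against 307, 289 and 385 in unbound libraries (3.29, limma adjusted p = 7.17e-07). PHO3 (0.00), TIP1 (-0.23) and YGP1 (-0.16) did not pass the test, and PHO5 was enriched (0.70, limma adjusted p = 0.0101). The mRNAs that face shorter parts of these XUTs were reduced. They were TIM12 (7.8% of XUT_2F-177, -1.78), BAP2 (10.7% of XUT_2F-150, -2.43) and CBK1 (5.3% of XUT_14R-130, -1.34).

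In all, 18 members had at least 0.5 of their span opposite mRNAs when the mRNAs were counted as one. Of the 16 above the minimum mean, 12 were enriched and 2 reduced, with a median log2 fold change of 1.83 and 1.64, 1.95 and 1.78 by library pair. The median of the 242 members changed to -0.02 without them.

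**Figure D3:**
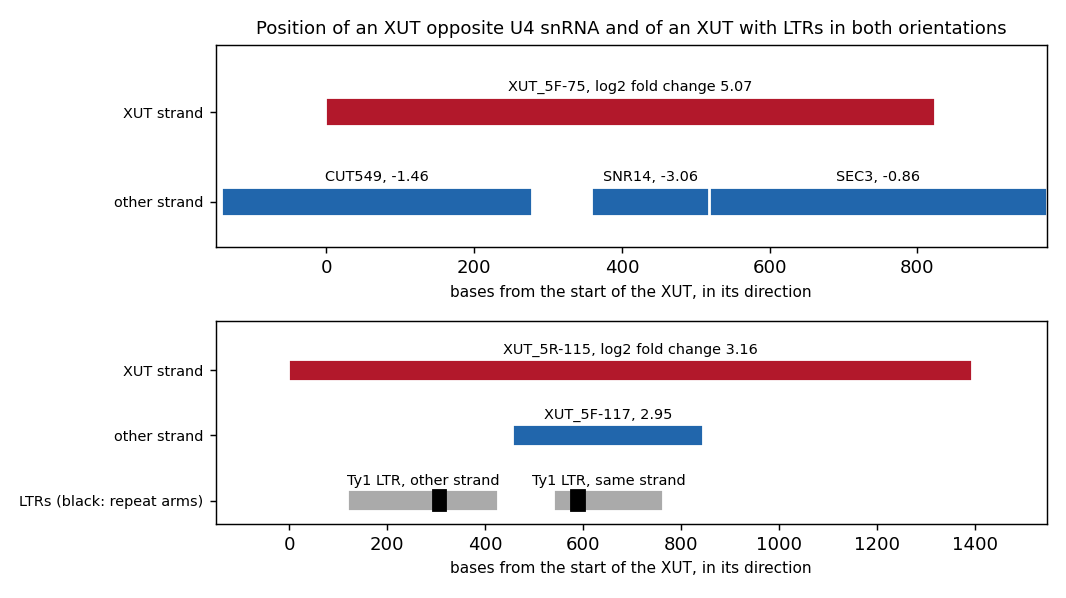
Positions of features around 2 enriched members, in bases from the start of the XUT in its own direction, with the log2 fold change beside each name. XUT_5F-75 (5.07) lies opposite CUT549, SNR14 and SEC3, all with negative values, and XUT_5R-115 (3.16) holds 2 Ty1 LTRs of opposite orientation, each with 1 arm of 28 bases of the inverted repeat in black.

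LTRs overlapped a larger share of the members than of the antisense XUTs. At least 1 LTR of the reference annotation overlapped 80 of 495 members and 14 of 1098 antisense XUTs. Of the 55 such members above the minimum mean, 25 were enriched and 14 reduced, with a median log2 fold change of 0.73, against 58 enriched and 68 reduced of the 187 without an LTR (median -0.07). There were 9 members with LTRs in both orientations above the minimum, again a set chosen after its values were seen. The set was taken by orientation alone. In XUT_7R-426, XUT_4F-532, XUT_8F-65 and XUT_2R-11 the LTRs of opposite orientation belong to different Ty families. Whether any of these LTRs pair with each other was not tested. Of the 9 members, 8 were enriched, and XUT_16R-346 was not called (0.58, limma adjusted p = 0.0851). Their log2 fold changes lay between 0.58 and 3.55 with a median of 1.92, and 1.82, 1.36 and 2.24 by library pair. The 46 with LTRs in 1 orientation had a median of 0.35, with 17 enriched and 14 reduced. Without the minimum, 8 of all 12 members with LTRs in both orientations (66.7%) were enriched and 0 reduced, with a median of 1.52. Among all 15753 features 38.7% were enriched.

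Apart from XUT_5R-115, the most abundant of the 9 were XUT_7R-243 and XUT_7R-426. XUT_7R-243 had 2107, 1953 and 4176 counts in the eluates, against 310, 291 and 155 in unbound libraries (3.42 ± 0.34 SE, limma adjusted p = 1.11e-05). XUT_7R-426 had 1509, 1402 and 4208 in the eluates, against 217, 202 and 124 in unbound libraries (3.55 ± 0.40 SE, limma adjusted p = 2.58e-05). In both, eluate 3 was the highest and unbound 3 the lowest library, and without eluate 3 the values were 3.07 and 3.04. Of their 50-base windows, 63.9% in XUT_7R-243 and 61.4% in XUT_7R-426 occur once in the genome, so some reads could also match other LTR copies, whereas all windows of XUT_5R-115 are unique. XUT_15F-331, with the next longest inverted repeat (19 bases, in a pair of Ty1 LTRs), had 881, 862 and 1162 in the eluates, against 448, 386 and 353 in unbound libraries (1.28, limma adjusted p = 0.000165).

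Over all 242 members the length of the longest perfect inverted repeat had little relation to the fold change (Spearman's rho 0.11, a description over members that share libraries). The same held for the span (-0.06), the GC content (-0.17) and the share of unique windows (-0.03). The longest repeats had a median of 10 bases and a maximum of 28, and the study states that J2 recognises dsRNA of 40 base pairs. The rho for repeats therefore does not cover perfect repeats of that length, and imperfect repeats were not measured. Enriched members had a median GC content of 35.7% and reduced members of 37.0%.

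Of the 6 members with the largest fall, all but XUT_12R-389 averaged under 40 in the eluates and passed the minimum through the unbound libraries. XUT_12R-389, at -2.42, had the largest fall among members above 40 in each group. XUT_7F-447 had 4.92, 4.84 and 5.11 normalised counts in the eluates, against 81.9, 99.2 and 94.1 in unbound libraries (-3.96 ± 0.32 SE, limma adjusted p = 2.98e-06). The asRNA antisense2157 lies opposite 94.4% of it, at 11.2 ± 2.07 counts in the eluates and 6.23 ± 2.51 in unbound libraries (SD, n = 3 each). XUT_7F-358 had 20.1, 9.69 and 14.5 in the eluates, against 167, 182 and 147 in unbound libraries (-3.45, limma adjusted p = 7.08e-06). XUT_7F-213 had 49.6, 42.4 and 23.0 in the eluates, against 267, 269 and 233 in unbound libraries (-2.78, limma adjusted p = 2.18e-05). Neither of these 2 has a feature of the table opposite, although 99.9% of XUT_7F-213 lies within the asRNA YGL034C-as of its own strand.

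XUT_13R-108 had 24.6, 10.3 and 20.4 in the eluates, against 119, 83.3 and 162 in unbound libraries (-2.69, limma adjusted p = 0.000155). XUT_7F-347 (-2.53) and XUT_12R-389 followed, with limma adjusted p = 6.23e-05 and 6.67e-06. In each of the 6, every eluate lay below every unbound library, which the choice of these members required. Where they had a partner on the other strand, it was scarce, with at most 13.9 counts per kb in the mean over libraries. By position, 4 of the 6 lie on chromosome VII, which holds 49 members. Of the 26 above the minimum there, 10 were enriched and 11 reduced.

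Where some bases faced an mRNA, the most reduced members were XUT_11R-226 and XUT_4R-549. XUT_11R-226, 31.6% of it opposite GAP1, the general amino acid permease gene, had 12.8, 14.5 and 32.4 in the eluates, against 67.0, 79.7 and 107 in unbound libraries (-2.12, limma adjusted p = 0.00079), and with mRNA size factors the call was lost (adjusted p = 0.0773, against 2.87e-06 to 0.0773 over all alternatives). XUT_4R-549, 16.2% of it opposite LRS4, had 45.2, 71.5 and 69.8 in the eluates, against 265, 223 and 265 in unbound libraries (-2.02, limma adjusted p = 4.81e-05). GAP1 and LRS4 were reduced too.

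The level of the transcript on the other strand went with the fold change. For each member the feature of any class with the longest overlap on the other strand was taken, which 228 of the 242 had. Where this feature was above 100 normalised counts per kb (mean over the 6 libraries), 48 of 71 members were enriched and 6 reduced, with a median log2 fold change of 1.28 and 1.27, 1.53 and 1.40 by library pair. Where it lay above 10 and up to 100, 29 of 115 were enriched and 35 reduced (median -0.05). Up to 10 counts per kb, 5 of 42 were enriched and 32 reduced (median -1.09, with -1.06, -1.11 and -1.19 in the pairs). Spearman's rho between the unbound level of the opposite feature and the member's fold change was 0.54 over 228 members and 0.50 over the 198 whose opposite feature was not an mRNA. The rho with the fold change of the opposite feature was -0.03. These are descriptions across members, which share libraries and depth, and the levels were examined after the data had been seen.

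**Figure D4:**
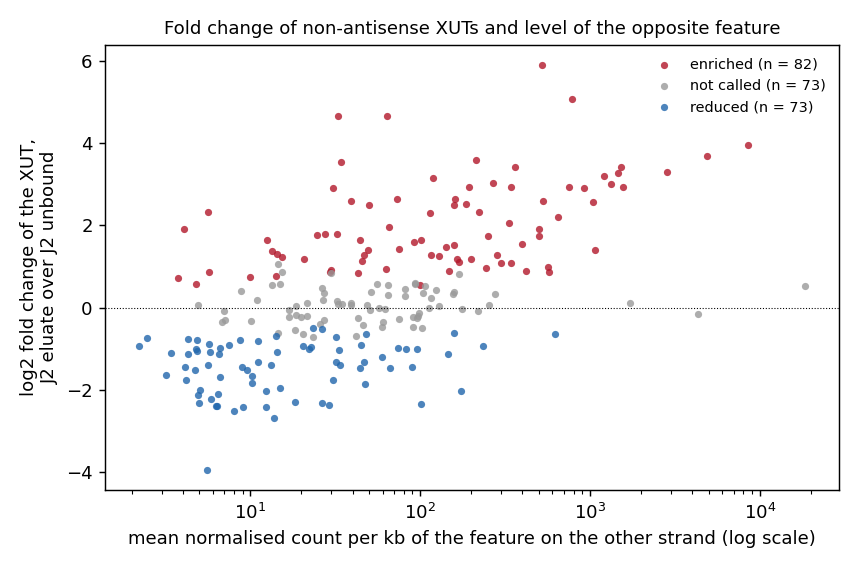
Log2 fold change of each non-antisense XUT, J2 eluate over J2 unbound, against the mean normalised count per kb (log scale) of the feature with the longest overlap on the other strand, for 228 XUTs. Enriched XUTs in red gather at high levels of the opposite feature and reduced ones in blue at low levels.

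The member's own level went the other way, with a rho of -0.46 between its unbound level per kb and its fold change, which share the unbound counts. There were 51 members with an opposite feature of a higher level per kb than their own, of which 34 were enriched and 4 reduced (median 1.39). Of the 177 members at or above the level of their opposite feature, 48 were enriched and 69 reduced (median -0.20). The minimum mean shaped these counts, since scarce members could pass it through the eluates. Without it, 61 of 172 members below their opposite feature (35.5%) were enriched and 26 (15.1%) reduced (median 0.39). For the other 281 it was 55 (19.6%) and 105 (37.4%), with a median of -0.38. Among all 15753 features, 38.7% were enriched and 34.4% reduced.

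Among the members, 65 pairs overlapped each other on opposite strands, and in 24 both had a mean above 40. The less abundant XUT per kb had the higher log2 fold change in 16 of the 24. The minimum mean shaped this count too, since the scarcer XUT could pass it through the eluates alone, as XUT_3R-8 and XUT_16F-310 did. The shared stretch was as short as 6 bases, in XUT_16F-1 and XUT_16R-8, and the count was not tested. XUT_16F-310 lies wholly within XUT_16R-348 on the other strand. It had 171, 135 and 107 counts in the eluates, against 14.9, 7.09 and 10.3 in unbound libraries (3.59, limma adjusted p = 1e-05), while XUT_16R-348 was not called (0.34, limma adjusted p = 0.128). In the pair of XUT_15F-436 and XUT_15R-427, chosen after its values were seen, both strands were abundant and both were enriched. XUT_15F-436 had 1925, 1748 and 1748 in the eluates, against 265, 165 and 308 in unbound libraries (2.92, limma adjusted p = 2.8e-06), and XUT_15R-427 had 1773, 1677 and 1519 in the eluates, against 424, 379 and 280 in unbound libraries (2.21, limma adjusted p = 4.9e-06).

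The share of an XUT that faces an mRNA also went with the fold change, across the threshold that divides the classes. XUTs with no base opposite an mRNA had a median log2 fold change of -0.19 (158 XUTs), and those with above 0 and up to 25% of the span had 0.08 (31). The median was 0.88 between 25% and 40% (30 XUTs) and 0.85 between 40% and 50% (23 XUTs). Beyond the threshold it was 1.27 between 50% and 60% (58 XUTs) and 1.98 for the 354 XUTs that lay wholly opposite 1 mRNA. The members just inside the threshold were XUT_7F-384 (49.5%, opposite ATF2), XUT_14R-130 (49.3%) and XUT_7R-187 (49.2%, opposite YGL039W), with log2 fold changes of 2.94, 3.29 and 3.02. Just outside it were XUT_14R-21 (50.2%, 1.58), XUT_16F-17 (50.9%, -0.55) and XUT_13R-232 (51.0%, 3.24). With total count or mRNA size factors the sign of XUT_16F-17 turned (0.35 and 0.75).

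**Figure D5:**
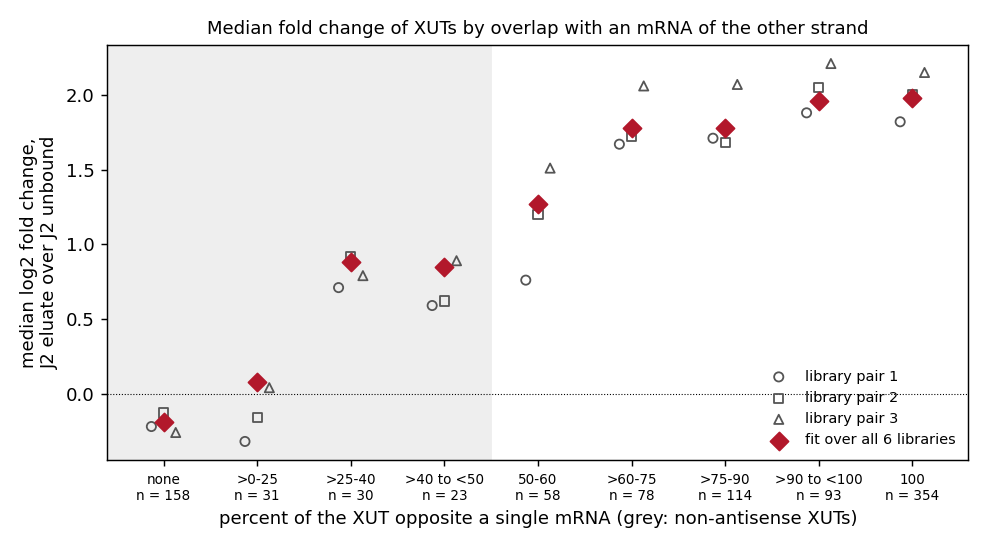
Median log2 fold change, J2 eluate over J2 unbound, of all 939 XUTs with a mean count above 40 by the percent of their span opposite a single mRNA. Red diamonds are from the fit over 6 libraries, open symbols are the 3 same-numbered pairs of libraries, and non-antisense XUTs lie on grey. The median is -0.19 with no overlap and 1.98 with full overlap.

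Reads of the same strand limit how far a member can be told from its neighbours. All but 3 of the 495 members overlap another feature of their own strand, among them SUTs for 178, asRNAs for 176, CUTs for 70 and mRNAs for 78. In 197 of the 242 members the log2 fold change was within 0.5 of that of the same-strand feature with the longest overlap, with which reads are shared. Some members within an mRNA of their strand, chosen after their values were seen, serve as examples. XUT_16F-272, within ROX1, the gene of a repressor of hypoxic genes, had 26.5, 24.8 and 69.8 counts in the eluates, against 220, 135 and 254 in unbound libraries (-2.42, limma adjusted p = 0.000474). XUT_15R-430, within TYE7, a gene for a glycolytic transcription factor, was reduced as well (-1.33), as was XUT_3F-130 within HMRA1 at the silent mating-type locus (-1.33). The 3 enriched members of this kind were XUT_12R-85 (2.65), XUT_11F-137 (2.59) and XUT_7R-97 (0.86). For the comparison, a member counted as with a same-strand mRNA when at least 0.5 of its span lay within mRNAs of its strand. Members without one by this rule, some of which overlap such an mRNA in part, exceeded those with one. The difference was 0.82 in the median, with 0.66, 0.97 and 1.22 by library pair.

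The rule used the coding features of the deposited table. RefSeq places a gene opposite at least 0.5 of 5 further members, of which XUT_1R-108 passed the minimum mean and was reduced (-1.40).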

How the data were processed

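Per the study's methods and the submitters' processing notes, the authors mapped the reads of the 6 libraries to sacCer3 with STAR, and the reads were counted with featureCounts (Subread 1.5.0-p1) and processed with R 3.6.1 and DESeq2 1.24.0. Whether a read was counted on its strand only, and how reads that map to several places were treated, is not given in the sources used here. In unbound libraries XUT_5F-75 averaged 18.7 normalised counts and SNR14 on the other strand 818. XUT_8F-65 averaged 206 and RPS27B on its other strand 23590. Strands were therefore largely kept apart, but these values cannot exclude a small share of reads counted on the wrong strand. The names INT50, Unit and intergenic of some features are not explained in the sources used here. The deposited values are a signal of normalised counts, that is counts which the authors divided by 1 size factor per library. The table repeats a feature on each segment, and its 47860 lines were collapsed to 15753 features. Whole reads were recovered for 100.0% of values in each library, within 0.1 of a whole number, with size factors of 2.03, 1.65 and 1.17 in eluates 1 to 3 and 0.672, 0.565 and 0.776 in unbound libraries 1 to 3. The authors' columns of group means, fold changes and p-values were not used. Sums over features are read here as holding some reads more than once, since features of a strand overlap.

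Eluate was compared with unbound by limma 3.58.1 (lmFit and eBayes with a trend, R 4.3.3) on log2(normalised count + 1), and p-values were adjusted by Benjamini-Hochberg across the 15753 features. The pseudocount makes fold changes of low features too small. A call needs an adjusted p under 0.05, and calls are given for features with a mean above 40, the minimum of the study's methods. A floor of 3 counts is a normalised count between 1.47 and 2.55 in the eluates and between 3.87 and 5.31 in unbound libraries. Intervals cover counting error only. Same-numbered eluate and unbound libraries deviated together, with correlations of 0.228, 0.321 and 0.299 between their deviations from the group means, against -0.368 to 0.125 for other pairs, so the numbers pair the samples and a replicate block was an alternative. Other alternatives were TMM, total count and mRNA size factors, pseudocounts of 0.5 and 10, no filter, DESeq2 1.42.0 and edgeR 4.0.16 on the recovered reads, other overlap rules, each library left out, and, chosen after seeing the data, members with unique sequence only. The procedure was tested on simulated data.

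Coordinates are those of the table. Of 5811 coding genes shared with the R64 reference, 99.9% had the reference start and end among the ends of their segments. Its sequence and LTR annotation (RefSeq) were therefore used, with Python 3.11.15. Spans run between the outermost segments and can extend beyond the reference ends. An inverted repeat is the longest perfect one within a span, and unique windows are 50-base stretches found once in the genome. The members and lists were chosen with earlier results of these data known. Members named are the 6 with the largest rise and the 6 with the largest fall among calls whose groups did not overlap, the 5 highest in mean count, the 3 most enriched and 2 most reduced of each group other than that within an mRNA, the 3 XUTs on each side of the overlap threshold, and features that overlap these.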

Additional observations from a re-analysis of the deposited data

How the results depend on the processing

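The split of the 242 members into 83 enriched and 82 reduced depended on the scaling. Total count factors gave 136 and 29 members and a median log2 fold change of 0.96, and mRNA factors gave 162 and 19 members and a median of 1.36. TMM moved the median to 0.21 and the counts by less than 1.5 times. Of the calls among these members, 50.3% were enriched ones with the deposited factors, 55.7% with TMM, 82.4% with total count and 89.5% with mRNA factors. The difference of medians to antisense XUTs (-1.81) and that between members without and with a same-strand mRNA (0.82) moved by less than their spread over library pairs under each scaling and pseudocount.

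Without a filter on the mean, 156 members were reduced and the median was -0.18. Members with no base opposite an mRNA had 44 enriched, a median of -0.19 and a difference of -2.05 to antisense XUTs. The members left out there, with some bases opposite an mRNA, had medians between 0.08 and 0.88 by overlap. Leaving out those with at least 0.5 opposite the union of mRNAs gave a median of -0.02, and leaving out those within a same-strand mRNA gave 0.11. The replicate block, a paired fit, gave 87 enriched and 84 reduced and changed no count by over 1.5 times. With DESeq2 there were 84 and 82, and with edgeR 94 and 73. Members of unique sequence, an alternative chosen after seeing the data, had 67 and 69. With each library left out in turn, 76 to 82 members were enriched and 69 to 80 reduced, the median lay between -0.04 and 0.09, the difference to antisense XUTs between -1.96 and -1.79, and that between members without and with a same-strand mRNA between 0.74 and 1.05. Medians near 0, such as that of all members, have no stable sign here.

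For the 34 named XUTs, 469 of 476 values kept direction and call. XUT_16F-17 reversed with total count (0.35) and mRNA factors (0.75), XUT_11R-226 lost its call with mRNA factors (-0.84), and XUT_16R-346 gained one with TMM, total count, mRNA factors and edgeR. Counts in unbound libraries limit the folds of XUT_3R-8 and XUT_7F-65, which rest on 3 and 8 unbound reads.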

Other observations

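A pair of members on chromosome XI, chosen after their values were seen, lay on opposite strands and moved in opposite directions. XUT_11F-16 had 27.0, 32.7 and 23.8 normalised counts in the eluates, against 4.47, 5.31 and 18.0 in unbound libraries (log2 fold change 1.72, limma adjusted p = 0.012, mean under 40). XUT_11R-13, which faces it over 590 bases, had 22.6, 29.1 and 24.7 in the eluates, against 128, 140 and 138 in unbound libraries (-2.37, limma adjusted p = 1.86e-05). The eluates thus held similar counts of both strands, and the unbound libraries held mostly XUT_11R-13. On chromosome XIII, XUT_13F-321 had 330, 299 and 357 counts in the eluates, against 40.2, 37.2 and 49.0 in unbound libraries (2.94, limma adjusted p = 1.99e-06). XUT_13R-330 on its other strand had 460, 408 and 489 in the eluates, against 174, 177 and 120 in unbound libraries (1.54, limma adjusted p = 0.000112), so both strands of that locus were enriched.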
